A study of Mus musculus with 29 samples.

Results

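The genes described here are the receptors through which cells sense TGF-beta, activins and bone morphogenetic proteins (BMPs). They comprised 3 type I receptors (Tgfbr1, Bmpr1a and Acvr1), 4 type II receptors (Tgfbr2, Bmpr2, Acvr2a and Acvr2b) and the co-receptor Tgfbr3, also called betaglycan. Members were chosen by gene symbol and made up 8 of 17005 symbols and 118 of 125369 entries in a table of poly(A) sites, the places where transcripts are cleaved and given their poly(A) tail. The same 8 genes were among 11734 in a table of RNA-seq reads.

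Receptors of this family are serine/threonine kinases that pass through the plasma membrane once. A ligand brings a type II receptor, whose kinase is always active, together with a type I receptor, which is then phosphorylated and in turn phosphorylates SMAD proteins that move to the nucleus. Because these receptors are membrane proteins, ribosomes that translate their mRNAs are normally brought to the endoplasmic reticulum (ER). In muscle, TGF-beta and the activin-like ligand myostatin are known for holding back differentiation, and BMPs can divert myoblasts such as C2C12 towards bone.

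All libraries came from C2C12, a single mouse myoblast line that fuses into muscle cells when serum is lowered. Proliferating cells were grown in DMEM with 10% fetal bovine serum. Differentiating cells were labelled with 2% horse serum in the polysome libraries and with the 10% serum medium in the monosome libraries, although both kinds carried muscle markers. Cytosol and membrane were collected apart from each other, and gradients then parted polysomes, mRNAs with several ribosomes, from monosomes. With 2 replicates of each state, fraction and gradient part there were 16 gradient libraries in 8 groups. Proliferating cells also gave 8 libraries, 1 per fraction, from untreated cells and from cells given puromycin at 100 µg/ml for 0, 30 or 60 min. Puromycin releases nascent chains and so takes ribosomes off mRNA. There was 1 library each of the whole cytosol and the whole membrane fraction, and 1 RNA-seq library each of cytosol, membrane and an insoluble fraction, all of proliferating cells. These 26 libraries other than RNA-seq were made with 3'READS+, which counts transcript 3' ends next to the poly(A) tail, so that a level does not depend on transcript length.

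Reads counted at poly(A) sites ranged from 2987706 to 8289093 in the gradient libraries and from 5533678 to 11721948 in the puromycin libraries. The RNA-seq libraries held 4283571 to 6521107 reads counted in parts of 3' UTRs, which is not their sequencing depth. Whether the replicates were separate cultures is not stated in the labels, and a p-value therefore reflects the spread of these libraries alone, which may be technical. As a check of the fraction labels, 13 of 14 genes of an ER list were higher in membrane in proliferating and 12 of 14 in differentiating cells. As a check of the state labels, 13 of 14 muscle markers were higher in differentiating cells in both fractions. The 4 replicate 2 libraries of differentiating cells stood apart, with summed muscle markers 4.28 to 8.24 times lower than in replicate 1, and the comparisons that involve that state are therefore also given without them. Markers of endothelial cells and of adipocytes were too low to be tested.

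Receptor mRNAs spanned a wide range of levels. Levels are given as read counts per 1000000 reads of a library size scaled by TMM (CPM), as means over the 16 gradient libraries. Among type I receptors, Bmpr1a, a BMP receptor, was the most abundant member at 38.7 CPM, Acvr1, a receptor for activins and BMPs, reached 24.3 CPM, and Tgfbr1, the signalling receptor for TGF-beta, 9.40 CPM. Among type II receptors, Bmpr2, which binds BMPs, stood at 19.8 CPM, Tgfbr2, which binds TGF-beta itself, at 11.9 CPM and the activin receptor Acvr2a at 2.42 CPM. The co-receptor Tgfbr3, which presents ligand to Tgfbr2 and has no kinase, stood at 4.08 CPM. Bmpr1a thus held 34.9% of the summed level of the 8 members and lay at percentile 69.7 of the genes tested, and Acvr2a held 2.19% and lay at percentile 15.1.

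Acvr2b, the other activin receptor of type II, had 17 reads in all 16 gradient libraries and 33 in all 26, never exceeded 0.664 CPM in a gradient library and was not tested. The other 7 members passed the filter on low counts. Neighbours in the order of mean levels were not separated by their libraries, since each member varied widely between fractions: Bmpr1a lay between 10.0 and 70.6 CPM, Acvr1 between 1.18 and 77.4 CPM and Bmpr2 between 1.52 and 67.1 CPM. The levels of all members by library are shown in the plot of CPM by group.

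**Figure D1:**
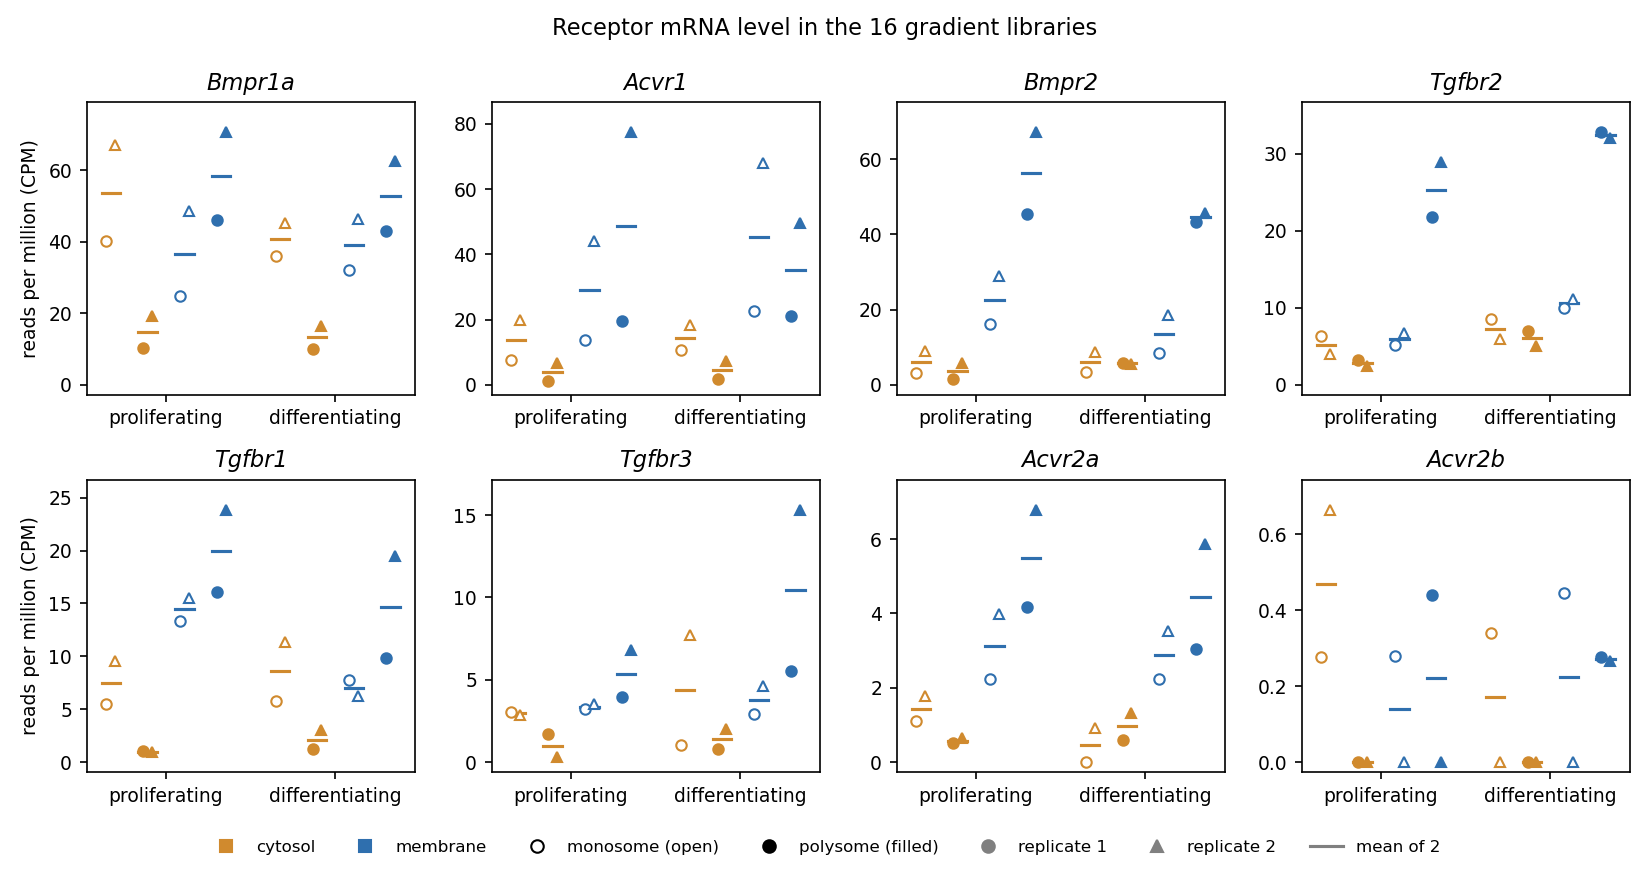
Level of each receptor mRNA in CPM (linear axis, with its own scale in each panel) in the 16 gradient libraries, by cell state (horizontal axis), fraction (colour), gradient part (open or filled) and replicate (circle or triangle), with a line at the mean of each group. Acvr2b never exceeds 0.664 CPM, and a cytosol polysome group has the lowest mean of 6 of the 7 tested members, Acvr2a being the exception.

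The first question of the design was how far the receptor mRNAs were associated with membrane. In proliferating cells 5 of the 7 tested members were higher in membrane than in cytosol, by 3.22-fold for Tgfbr2 to 7.47-fold for Bmpr2, and none was lower. In differentiating cells the same 5 receptors (Tgfbr1, Acvr1, Tgfbr2, Bmpr2 and Acvr2a) were higher, by 2.38-fold for Tgfbr1 to 5.51-fold for Acvr2a, a value that rests on few cytosol reads. The background was high, since 23.2% of 11176 genes tested were higher in membrane in proliferating and 14.2% in differentiating cells. The median log2 difference was 2.14 over the members and 0.17 over all genes in proliferating cells, and 1.49 and 0.07 in differentiating cells.

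Among type I receptors, Tgfbr1 in proliferating cells had 5.51 and 9.51 CPM in cytosol monosomes, 1.01 and 0.963 in cytosol polysomes, 13.4 and 15.5 in membrane monosomes and 16.1 and 23.8 in membrane polysomes. All 4 membrane libraries lay above all 4 cytosol libraries, and the log2 difference was 2.62 ± 0.39 (SE, adjusted p = 0.000167). In differentiating cells the libraries of Tgfbr1 overlapped, with 1.20 to 11.4 CPM (median 4.39) in cytosol and 6.26 to 19.5 CPM (median 8.81) in membrane, and the log2 difference was 1.25 ± 0.38 (adjusted p = 0.0315). This call for Tgfbr1 was lost when any 1 of 5 differentiating libraries was left out: replicate 1 of cytosol polysomes, cytosol monosomes or membrane monosomes, or replicate 2 of membrane monosomes or membrane polysomes (log2 0.97 to 1.33, adjusted p 0.053 to 0.12).

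Acvr1 in proliferating cells had 7.44 and 19.9 CPM in cytosol monosomes, 1.18 and 6.74 in cytosol polysomes, 13.8 and 44.1 in membrane monosomes and 19.7 and 77.4 in membrane polysomes. The log2 difference was 2.33 ± 0.69 (adjusted p = 0.0186) in proliferating and 2.29 ± 0.69 (adjusted p = 0.0339) in differentiating cells, where the fractions did not overlap (1.81 to 18.2 CPM in cytosol, 21.0 to 68.0 in membrane). Its replicates differed more than those of any other member: replicate 2 was higher in 8 of 8 groups, by a median log2 of 1.62, while 9.74% of genes tested were higher in replicate 2 in all 8 groups. In proliferating cells the Acvr1 call was lost without replicate 1 of cytosol polysomes (log2 1.95, adjusted p = 0.0741) or cytosol monosomes (2.06, 0.0791) and without replicate 2 of membrane monosomes (1.72, 0.0995) or membrane polysomes (1.61, 0.108). In differentiating cells it was lost without replicate 1 of cytosol polysomes (1.97, 0.113) or cytosol monosomes (2.12, 0.11) and without replicate 2 of cytosol monosomes (2.52, 0.0683), membrane monosomes (1.80, 0.129) or membrane polysomes (1.94, 0.107). Without replicate 2 of cytosol polysomes the Acvr1 difference was larger, at 3.09 in proliferating (adjusted p = 0.016) and 2.97 in differentiating cells (adjusted p = 0.0369).

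Bmpr1a, the most abundant receptor, had the smallest difference between fractions of the 7 in both states. In proliferating cells it ranged from 10.3 to 67.0 CPM in cytosol and from 24.8 to 70.6 CPM in membrane, and the log2 difference of 0.71 ± 0.32 did not pass (adjusted p = 0.101). In differentiating cells it was 0.97 ± 0.32 (adjusted p = 0.0509). Replicate numbers paired the gradient libraries within each state, and with the replicate as a block the Bmpr1a differences of 0.72 (adjusted p = 0.000351) and 0.96 (adjusted p = 1.82e-05) were called. Under the block 33.6% of genes in proliferating and 25.1% in differentiating cells were called higher in membrane.

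Of the type II receptors, Bmpr2 showed the widest separation in proliferating cells. It had 3.03 and 9.07 CPM in cytosol monosomes, 1.52 and 5.78 in cytosol polysomes, 16.2 and 28.9 in membrane monosomes and 45.3 and 67.1 in membrane polysomes, with no overlap between fractions (log2 2.90 ± 0.47, adjusted p = 0.000325). In differentiating cells Bmpr2 spanned 3.40 to 8.63 CPM in cytosol and 8.47 to 45.7 CPM in membrane, where 1 membrane monosome library fell just inside the cytosol range (log2 2.08 ± 0.47, adjusted p = 0.00671). Mean Bmpr2 levels fell in the order membrane polysomes (56.2 ± 15.4 CPM in proliferating and 44.5 ± 1.69 in differentiating cells, SD, n = 2), membrane monosomes (22.5 ± 9.02 and 13.5 ± 7.10) and the 4 cytosol groups (3.65 to 6.05). Within each of these 3 tiers the groups did not differ beyond the spread of their replicates.

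Tgfbr2 had 6.34 and 3.98 CPM in cytosol monosomes of proliferating cells, 3.20 and 2.41 in cytosol polysomes, 5.15 and 6.71 in membrane monosomes and 21.8 and 29.0 in membrane polysomes. Its separation from cytosol lay in the polysomes, and the monosome libraries overlapped. The log2 difference was 1.69 ± 0.28 (adjusted p = 0.000377) in proliferating and 1.49 ± 0.27 (adjusted p = 0.0017) in differentiating cells, where cytosol held 4.99 to 8.50 CPM and membrane 10.0 to 32.8 CPM without overlap. Acvr2a, at low counts, ranged from 0.506 to 1.77 CPM in cytosol and 2.23 to 6.79 in membrane in proliferating cells (log2 2.14 ± 0.54, adjusted p = 0.00774), and from 0 to 1.33 and 2.23 to 5.86 CPM in differentiating cells (2.46 ± 0.62, adjusted p = 0.0136). Its fractions did not overlap in either state. In differentiating cells Acvr2a had 0 and 2 reads in cytosol monosomes and 3 and 8 in cytosol polysomes. With any 1 library of that state left out it was still called, but the fitted value moved between 1.90 and 4.59, the latter without replicate 2 of cytosol monosomes, where replicate 1, with no read, is all that is left of the group.

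The co-receptor Tgfbr3 ranged from 0.321 to 3.03 CPM in cytosol and from 3.20 to 6.79 CPM in membrane of proliferating cells, without overlap. Its log2 differences of 1.29 ± 0.61 (adjusted p = 0.117) in proliferating and 1.34 ± 0.60 (adjusted p = 0.139) in differentiating cells did not pass the test. With the replicate block they were 1.28 (adjusted p = 0.00659) and 1.45 (adjusted p = 0.00408), so that all 7 tested members were called in both states. Without replicate 2 of differentiating cytosol monosomes, which held 7.72 CPM against 1.02 in replicate 1, the Tgfbr3 difference in differentiating cells was 2.36 (adjusted p = 0.0293).

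**Figure D2:**
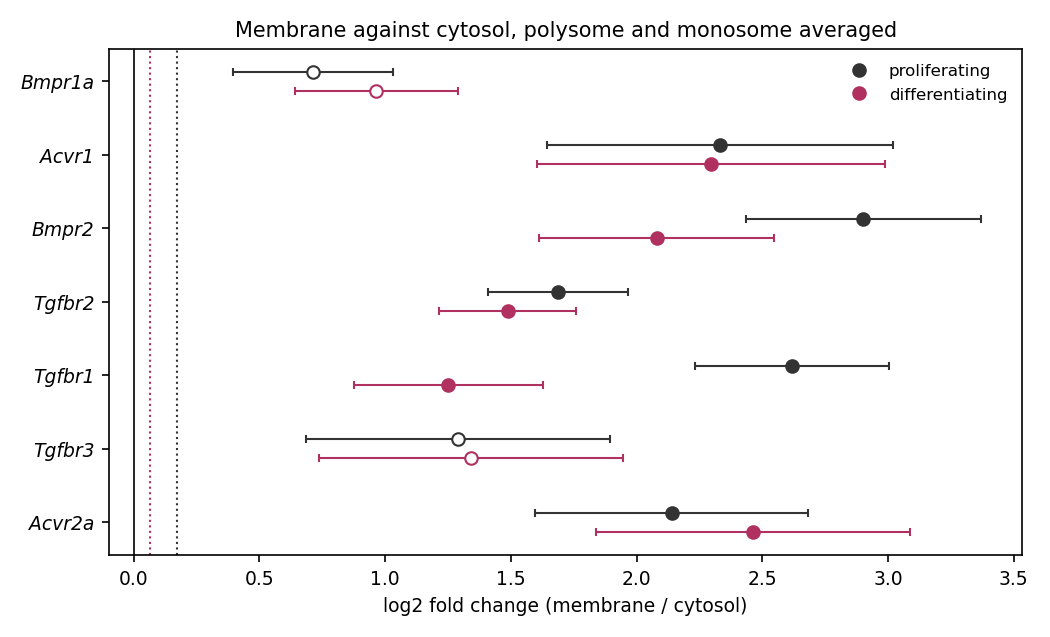
Membrane against cytosol difference (log2, horizontal axis) of the 7 tested receptors in proliferating and differentiating cells, with bars of 1 SE from edgeR, filled points for calls and dotted lines at the medians of all genes (0.17 and 0.07). All values lie above 0, from 0.71 for Bmpr1a to 2.90 for Bmpr2 in proliferating cells.

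The fractions were also compared within each gradient part. In polysomes alone the membrane libraries of all 7 tested members lay above the cytosol libraries in both states. This compares 2 libraries with 2, and its share over all genes was not counted. By edgeR 6 members were called in proliferating cells, against 19% of genes, with log2 differences of 1.98 (Bmpr1a, adjusted p = 0.00654) to 4.30 (Tgfbr1, adjusted p = 0.000107). In differentiating cells 5 were called in polysomes, against 13.1% of genes: Tgfbr1, Bmpr1a, Tgfbr2, Bmpr2 and Tgfbr3 (2.86, adjusted p = 0.0382).

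In monosomes alone edgeR called none of the 7 in either state, where fewer genes were called over all, 9.7% in proliferating and 1.8% in differentiating cells. Membrane monosomes lay wholly above cytosol monosomes for Tgfbr1, Bmpr2, Acvr2a and Tgfbr3 in proliferating and for Acvr1, Tgfbr2 and Acvr2a in differentiating cells. With 2 libraries per fraction this carries little weight, and the share of all genes that separated likewise was not counted. For Tgfbr3 the log2 difference there was 0.185 (edgeR adjusted p = 0.911). The log2 difference in monosomes reached 1.87 for Bmpr2 in proliferating (adjusted p = 0.0639) and 2.77 for Acvr2a in differentiating cells (adjusted p = 0.157). It was negative for Bmpr1a (-0.55 in proliferating, -0.06 in differentiating cells) and, in differentiating cells, for Tgfbr1 (-0.26, adjusted p = 0.84) and Tgfbr3 (-0.17). The difference between the parts in these values is the same quantity as the difference between fractions in the polysome to monosome ratio, whose test is given with the gradients.

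Without the 4 replicate 2 libraries of differentiating cells, 6.65% of 11566 genes were called higher in membrane in that state, and Acvr2a was the one member called (adjusted p = 0.0455). Its fitted value then has no bound, because the single cytosol monosome library held no read of it. In replicate 1 Acvr2a had 10 reads in membrane monosomes and 0 in cytosol monosomes. Set against a floor of 3 cytosol reads, membrane was 2.18-fold higher, with the counting error of the 10 membrane reads left out. In polysomes, with 22 and 3 reads, Acvr2a was 5.06-fold higher in membrane (95% exact interval 1.52 to 26.4, counting error only). The other 4 were not called: Acvr1 at 2.31 (adjusted p = 0.2), Bmpr2 at 2.11 (0.108), Tgfbr1 at 1.72 (0.0577) and Tgfbr2 at 1.23 (0.0992). RNAs that stay in the nucleus were also higher in membrane, 3 of 3 tested in proliferating cells, among them Malat1 by 1.70 and Neat1 by 4.23 (log2), and 1 of 3 in differentiating cells. Their part in the result was not tested.

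The other genes of the pathway were given for comparison, from lists that were chosen with earlier results of these data known. In proliferating cells 3 of 5 other tested receptors and co-receptors were higher in membrane, among them the activin type I receptor Acvr1b (log2 2.59 ± 0.59) and the BMP co-receptor Rgma (1.42 ± 0.35). Of the ligands, which are secreted, 6 of 9 were higher, including Inhbb, an activin subunit (2.97 ± 0.59), and Tgfb1 (1.84 ± 0.24). Of proteins that bind and store ligand, 9 of 13 were higher, with Ltbp1, which anchors latent TGF-beta in the matrix, at 3.84 ± 0.38.

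Of the 8 SMADs, which act inside the cell, 3 were higher in membrane (Smad3 at 1.30 ± 0.38) and none was lower, and Smad2 stood at -0.08 ± 0.27. Of 23 intracellular regulators 2 were higher and 2 lower: Skil, which represses SMAD targets, was higher by 1.29 ± 0.25, and Fkbp1a, which binds type I receptors, was lower at -0.76 ± 0.27. Receptor tyrosine kinases, an unrelated family of membrane receptors, had 19 of 20 tested members higher, with a median of 2.79 against 2.14 for the TGF-beta and BMP receptors.

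The difference between states in this membrane association was tested as an interaction. For none of the 7 members, and for 0 of 11176 genes (0%), did edgeR find a difference at an adjusted p under 0.05, while 669 genes had an unadjusted p under 0.05 and 14 were called with DESeq2. Under the replicate block none of the 7 was called either, although 4.6% of genes then were (433 lower, 81 higher). Tgfbr1 came closest, with a log2 difference of -1.37 ± 0.53 (unadjusted p = 0.0233, adjusted p = 0.768), which was -1.33 (adjusted p = 0.0622) with the replicate block. The values of the other 6 lay between -0.82 ± 0.64 for Bmpr2 and 0.32 ± 0.83 for Acvr2a. Without the 4 differentiating replicate 2 libraries 0 of 7 members and 0% of genes were called in this interaction (552 at an unadjusted p under 0.05), with Tgfbr1 at -0.89, Bmpr2 at -0.79, Tgfbr2 at -0.45, Acvr1 at -0.01, Bmpr1a at 0.26 and Tgfbr3 at 0.84.

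The receptor mRNAs did not pass the test for a change on differentiation. In membrane, 0 of 7 members were called, against 23.2% of genes in either direction, and in cytosol 0 of 7 against 14.4%. Unadjusted p-values were under 0.05 for Tgfbr2 in both fractions, at 0.0378 in membrane and 0.0149 in cytosol. DESeq2 called Tgfbr2 in membrane (log2 0.73, adjusted p = 0.0401), against 26.5% of genes, and no member in cytosol, against 19.3%. Without the 4 differentiating replicate 2 libraries edgeR again called 0 of 7 in either fraction, against 18.9% of genes in membrane and 12.8% in cytosol.

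Tgfbr2 in membrane had 5.15, 6.71, 21.8 and 29.0 CPM in proliferating and 10.0, 11.2, 32.8 and 32.1 CPM in differentiating cells. Within each gradient part both differentiating libraries were above both proliferating ones, and the log2 difference was 0.60 ± 0.26 in membrane (adjusted p = 0.112) and 0.79 ± 0.29 in cytosol (adjusted p = 0.0772). Tgfbr1, its partner in the TGF-beta receptor complex, had the opposite sign in membrane (-0.74 ± 0.35, adjusted p = 0.14) and 0.63 ± 0.41 in cytosol (adjusted p = 0.327). Without the 4 differentiating replicate 2 libraries Tgfbr2 stood at 0.57 in membrane and 1.02 in cytosol (adjusted p = 0.236 and 0.092), and Tgfbr1 at -0.95 (0.0941) and -0.06 (0.962), so that the positive cytosol value of Tgfbr1 rested on those libraries.

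For the BMP receptors the differences in membrane were -0.02 ± 0.32 for Bmpr1a, 0.10 ± 0.64 for Acvr1 and -0.54 ± 0.42 for Bmpr2, and they moved when the 4 differentiating replicate 2 libraries were left out, to -0.31 (adjusted p = 0.61), -0.78 (0.491) and -0.89 (0.274). Acvr2a went from -0.20 ± 0.48 to -0.65 (adjusted p = 0.38) and Tgfbr3 from 0.56 ± 0.56 to -0.07 (0.934). In cytosol, leaving them out moved Acvr1 from 0.13 ± 0.70 to -0.76, Bmpr2 from 0.28 ± 0.48 to -0.10 and Tgfbr3 from 0.51 ± 0.65 to -0.91. None of these values passed the test, and the direction of several depended on those libraries. In these bulk samples, fewer cells with an mRNA and less of it per cell cannot be told apart.

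In the same membrane comparison 8 of 8 proliferation markers were lower. Of 4 fibroblast markers Postn was higher in differentiating cells (log2 5.01 ± 0.34, adjusted p = 2.42e-06), Pdgfra stood at -0.52 ± 0.70 (adjusted p = 0.618), and Thy1 and Lum were too low to be tested, at mean levels of 0.0279 and 0.489 CPM in differentiating cells. The summed level of the 4 was 38.4 to 78.5 CPM in differentiating and 3.30 to 3.96 CPM in proliferating membrane libraries, and over both fractions Postn alone had a mean of 33.3 CPM in differentiating and 1.10 CPM in proliferating cells. The part of these genes in the receptor values was not tested.

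Other pathway genes did pass in membrane. The co-receptors Hfe2, also known as hemojuvelin (log2 8.20 ± 0.93), and Rgma (1.44 ± 0.33) were higher in differentiating cells, with 3 of 5 other receptors higher in all. Of 9 ligands Gdf5 alone was called (7.69 ± 1.41). Grem1, a BMP antagonist, fell by 2.79 on the log2 scale and Ltbp1 fell by 2.63. None of 18 target genes was called by edgeR in membrane.

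On the gradients, the receptors differed between fractions. In membrane, Tgfbr2 was the one member higher in polysomes than in monosomes in both states, by a log2 of 2.09 ± 0.38 in proliferating (adjusted p = 0.0274) and 1.61 ± 0.37 in differentiating cells (adjusted p = 0.0322). In cytosol, the type I receptors Tgfbr1 and Bmpr1a were lower in polysomes than in monosomes in both states. The background depended on the pairing of replicates. Without the block few genes were called in membrane (0.358% higher and 0.438% lower in proliferating, 2.05% and 1.91% in differentiating cells) and many in cytosol (11.5% higher and 12.8% lower, 12.6% and 11.3%). Under the block 16.8% were higher in membrane polysomes in proliferating and 20.3% in differentiating cells, and 24.3% and 21.5% were lower in cytosol polysomes.

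Tgfbr2 in membrane monosomes had 5.15 and 6.71 CPM in proliferating and 10.0 and 11.2 CPM in differentiating cells. Its polysome libraries held 21.8 and 29.0 CPM and 32.8 and 32.1 CPM, all above the monosomes. The call was lost on leaving out any 1 of the 4 libraries compared, in proliferating (log2 1.75 to 2.18, adjusted p 0.145 to 0.272) and in differentiating cells (1.54 to 1.70, 0.124 to 0.191), although its direction was kept. It was also lost without all 4 differentiating replicate 2 libraries (1.72, adjusted p = 0.303), a fit that called 0% of genes higher.

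With the replicate block, and so against the higher background of that fit, Bmpr2 was higher in membrane polysomes too, by 1.37 (adjusted p = 0.00046) in proliferating and 1.79 (adjusted p = 2.14e-05) in differentiating cells. Bmpr1a was called in proliferating cells under the block (0.71, adjusted p = 0.0197), and Tgfbr1 (0.94, adjusted p = 0.0407) and Tgfbr3 (1.36, adjusted p = 0.0339) in differentiating cells. Acvr1 and Acvr2a were not called in membrane under either fit.

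Tgfbr1 in cytosol went from 5.51 and 9.51 CPM in monosomes to 1.01 and 0.963 in polysomes of proliferating cells, a log2 difference of -2.91 ± 0.59 (adjusted p = 0.00386). In differentiating cells it went from 5.78 and 11.4 to 1.20 and 2.99 CPM (-1.98 ± 0.56, adjusted p = 0.0216). Bmpr1a went from 40.2 and 67.0 to 10.3 and 19.3 CPM (-1.86 ± 0.47, adjusted p = 0.0116) and from 36.0 and 45.4 to 10.0 and 16.5 CPM (-1.61 ± 0.47, adjusted p = 0.0241). Neither gene overlapped between the parts in either state.

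The Bmpr1a call in cytosol was lost in proliferating cells without polysome replicate 1 (-1.47, adjusted p = 0.106) or monosome replicate 2 (-1.43, 0.0903), and in differentiating cells without polysome replicate 1 (-1.29, 0.163), monosome replicate 1 (-1.76, 0.0549) or monosome replicate 2 (-1.42, 0.106). The Tgfbr1 call in differentiating cells was lost without polysome replicate 1 (-1.48, 0.152) or monosome replicate 2 (-1.41, 0.162), and the value was -2.78 (0.0276) without polysome replicate 2. Without all 4 differentiating replicate 2 libraries neither was called (Tgfbr1 at -2.23, adjusted p = 0.0888; Bmpr1a at -1.83, 0.134), against 3.64% of genes lower. With the replicate block Acvr1 was also lower in cytosol polysomes, at -1.88 (adjusted p = 2.28e-05) in proliferating and -1.76 (adjusted p = 8.48e-05) in differentiating cells, as was Tgfbr3 in proliferating cells (-1.55, adjusted p = 0.0496).

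Of the SMAD mRNAs, whose proteins are made in the cytosol, 3 of 8 in proliferating and 5 of 8 in differentiating cells were higher in cytosol polysomes and none was lower, with medians of 1.10 and 1.77. Of the receptors 2 of 7 were lower and none higher, with a median of -1.55 in both states, and the difference between the lists was not tested. Of the ER list 11 and 10 of 14 members were lower in cytosol polysomes. The summed level of all 8 receptors gives the same order in every replicate: 19.4 to 40.6 CPM in cytosol polysomes, 65.6 to 114.8 in cytosol monosomes, 79.0 to 158.4 in membrane monosomes and 157.4 to 281.5 in membrane polysomes, with overlap between both kinds of monosome and, narrowly, between both membrane parts.

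The polysome to monosome ratio in membrane was set against that in cytosol, a test of the difference itself that was added after the data had been seen. In proliferating cells the ratio was higher in membrane for Tgfbr1 (log2 3.37 ± 0.76, adjusted p = 0.0156), Bmpr1a (2.53 ± 0.64, adjusted p = 0.0298) and Tgfbr2 (2.96 ± 0.55, adjusted p = 0.00546), 3 of 7 members against 6.19% of genes. In differentiating cells Tgfbr1 alone was called (3.03 ± 0.75, adjusted p = 0.0388), against 3.63% of genes. With the replicate block 6 of 7 members were called in each state, against 18.1% of genes in proliferating and 12.4% in differentiating cells, and Acvr2a was not (2.11, adjusted p = 0.0866, and -0.61, adjusted p = 0.787). The leave-out values of these calls are in the closing section.

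**Figure D3:**
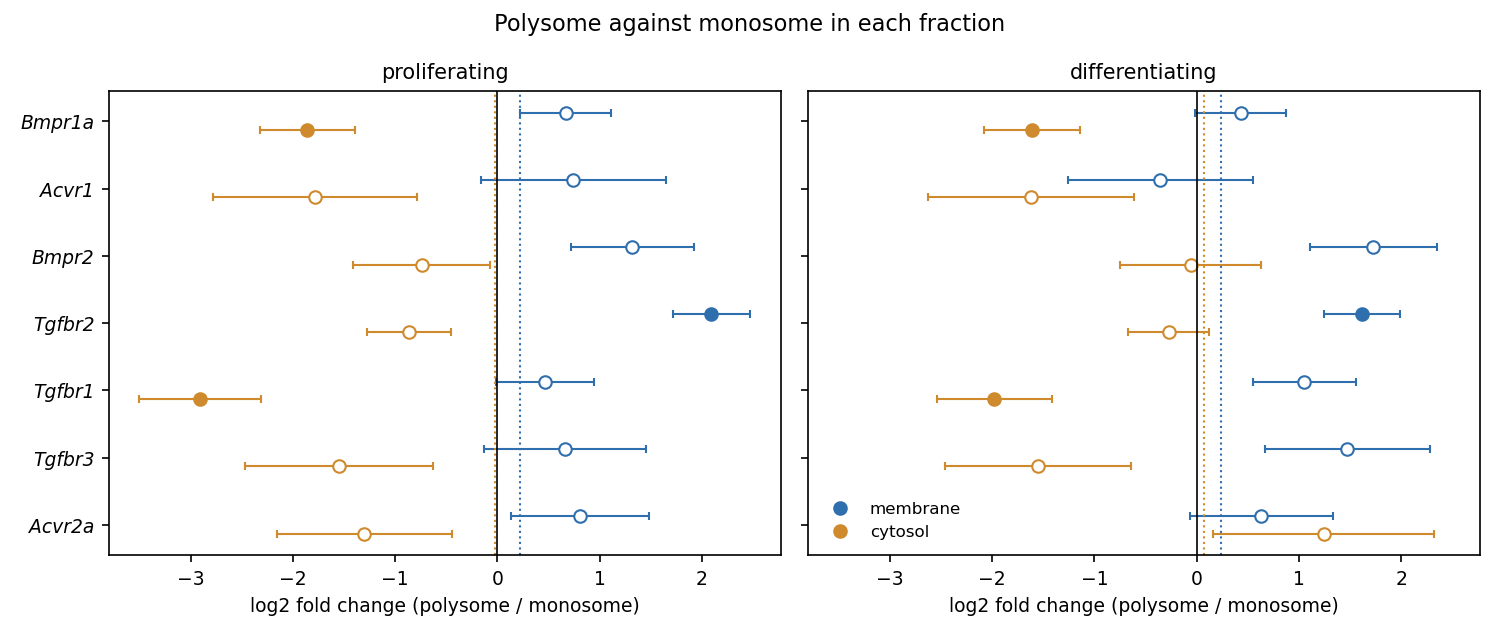
Polysome against monosome difference (log2, horizontal axis, with bars of 1 SE from edgeR) of the 7 tested receptors in membrane and in cytosol, with a panel per state, filled points for calls and dotted lines at the medians of all genes. Tgfbr2 in membrane reaches 2.09 in proliferating cells, and Tgfbr1 in cytosol reaches -2.91.

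The puromycin experiment asked whether membrane association held once ribosomes were released. In cells with no time in puromycin all 7 tested members were higher in membrane, and after 30 or 60 min Bmpr2 and Tgfbr1 were the ones still called higher there. In cytosol both exposed libraries lay above both unexposed ones for all 7. In membrane both exposed libraries lay below both unexposed ones for 5, while those of Tgfbr1 and Acvr2a overlapped. These counts carry little weight with so few libraries on each side. The share of all genes that separated likewise was not counted.

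Acvr1 in cytosol had 3.60 CPM in untreated cells, 3.02 at 0 min, 18.6 at 30 min and 18.0 at 60 min, a 5.53-fold higher mean after exposure. In membrane it had 26.5, 20.5, 15.4 and 14.7 CPM. Tgfbr2 in cytosol had 2.84, 3.48, 12.2 and 14.7 CPM in the same order, and 19.1, 26.5, 10.6 and 10.8 CPM in membrane. For both genes the exposed libraries lay apart from the unexposed ones in each fraction.

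Bmpr2 had 3.41, 3.48, 11.5 and 13.1 CPM in cytosol and 55.0, 48.7, 30.0 and 29.0 CPM in membrane, so that membrane stayed above cytosol at every time. Bmpr1a had 15.4, 13.6, 24.5 and 19.6 CPM in cytosol and 42.2, 40.1, 21.0 and 17.7 CPM in membrane, where it ended level with cytosol. Tgfbr3 went from 1.33 and 1.51 to 5.35 and 5.61 CPM in cytosol and went from 10.7 and 11.5 to 7.13 and 6.22 CPM in membrane. Its fractions were likewise close after exposure.

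Tgfbr1 had 2.84, 0.605, 6.43 and 3.60 CPM in cytosol and 18.2, 8.50, 9.59 and 8.03 CPM in membrane. Acvr2a had 0 reads in both unexposed cytosol libraries and 0.86 and 1.30 CPM in the exposed ones, with 2.61, 2.28, 2.58 and 2.51 CPM in membrane. Set against a floor of 3 reads per cytosol library, Acvr2a was 4.59-fold higher in membrane in untreated cells and 5.03-fold at 0 min. These folds rest on 32 and 18 membrane reads, whose counting error was left out. The 4 membrane libraries of Acvr2a lay between 2.28 and 2.61 CPM whatever the exposure.

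Without exposure the log2 membrane against cytosol difference was 1.51 ± 0.18 for Bmpr1a, 2.82 ± 0.24 for Acvr1, 2.85 ± 0.26 for Tgfbr2, 2.95 ± 0.34 for Tgfbr3, 3.02 ± 0.35 for Tgfbr1 and 3.90 ± 0.22 for Bmpr2, all called by edgeR, against 32.5% of 9919 genes higher. After exposure Bmpr2 (1.27 ± 0.18, adjusted p = 5.91e-05) and Tgfbr1 (0.83 ± 0.28, adjusted p = 0.026) were called, against 25.1% of genes. The others stood at -0.19 ± 0.17 (Bmpr1a), -0.29 ± 0.19 (Acvr1), -0.32 ± 0.21 (Tgfbr2), 0.28 ± 0.27 (Tgfbr3) and 1.25 ± 0.55 (Acvr2a, adjusted p = 0.077). In these fits the untreated and 0 min pairs, and the 30 and 60 min pairs, stand in as replicates of each other.

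A fit linear in minutes, with untreated cells at 0, called 0 of 7 members and 0 of 9919 genes (0%) in edgeR, where 2535 genes had an unadjusted p under 0.05. DESeq2 called 49 higher and 1143 lower. The 7 members were all negative in it, from -0.91 ± 0.26 for Bmpr1a to -2.02 ± 0.78 for Acvr2a per 30 min, at adjusted p from 0.11 to 0.231, and DESeq2 called Acvr1, Bmpr2, Tgfbr2 and Tgfbr3. With any 1 pair left out of the edgeR fit all 7 stayed negative, and without the 30 min pair the value nearest to none was -0.83 (Bmpr1a). Without the 30 or the 60 min pair the Acvr2a value has no bound, because its unexposed cytosol libraries held no read. Leaving out the 30 or the 60 min pair leaves a single exposed pair, so calls from those fits are not given.

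With exposure coded as exposed or not, all 7 members had a lower membrane to cytosol ratio after exposure, against 20.5% of genes lower and 19% higher. The log2 changes were -1.70 ± 0.25 for Bmpr1a (adjusted p = 6.24e-05), -2.19 ± 0.47 for Tgfbr1 (0.00186), -2.63 ± 0.30 for Bmpr2 (4.08e-06), -2.67 ± 0.45 for Tgfbr3 (0.000216), -3.10 ± 0.32 for Acvr1 (1.17e-06) and -3.17 ± 0.34 for Tgfbr2 (1.92e-06). Acvr2a was called too (adjusted p = 0.0156), but its fitted value has no bound, because its unexposed cytosol libraries held no read. The median over the members was -2.67 against 0.22 over all genes.

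Under the same coding, ligand-binding proteins had 10 of 11 tested members lower, among them Ltbp1 (-3.22 ± 0.22) and Grem1 (-5.06 ± 0.55), receptor tyrosine kinases 18 of 21 and the ER list 13 of 14. Of 7 SMADs 2 were higher and none lower, and of 22 intracellular regulators 10 were higher and 2 lower. In libraries of whole fractions, made without gradients or drug, the log2 membrane to cytosol ratio was 1.32 for Bmpr1a, 2.41 for Acvr2a, 3.06 for Tgfbr3, 3.37 for Bmpr2, 3.70 for Acvr1, 3.91 for Tgfbr1 and 4.26 for Tgfbr2, with 1 library each and so no replicate check. Bmpr1a again had the lowest value of the 7.

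**Figure D4:**
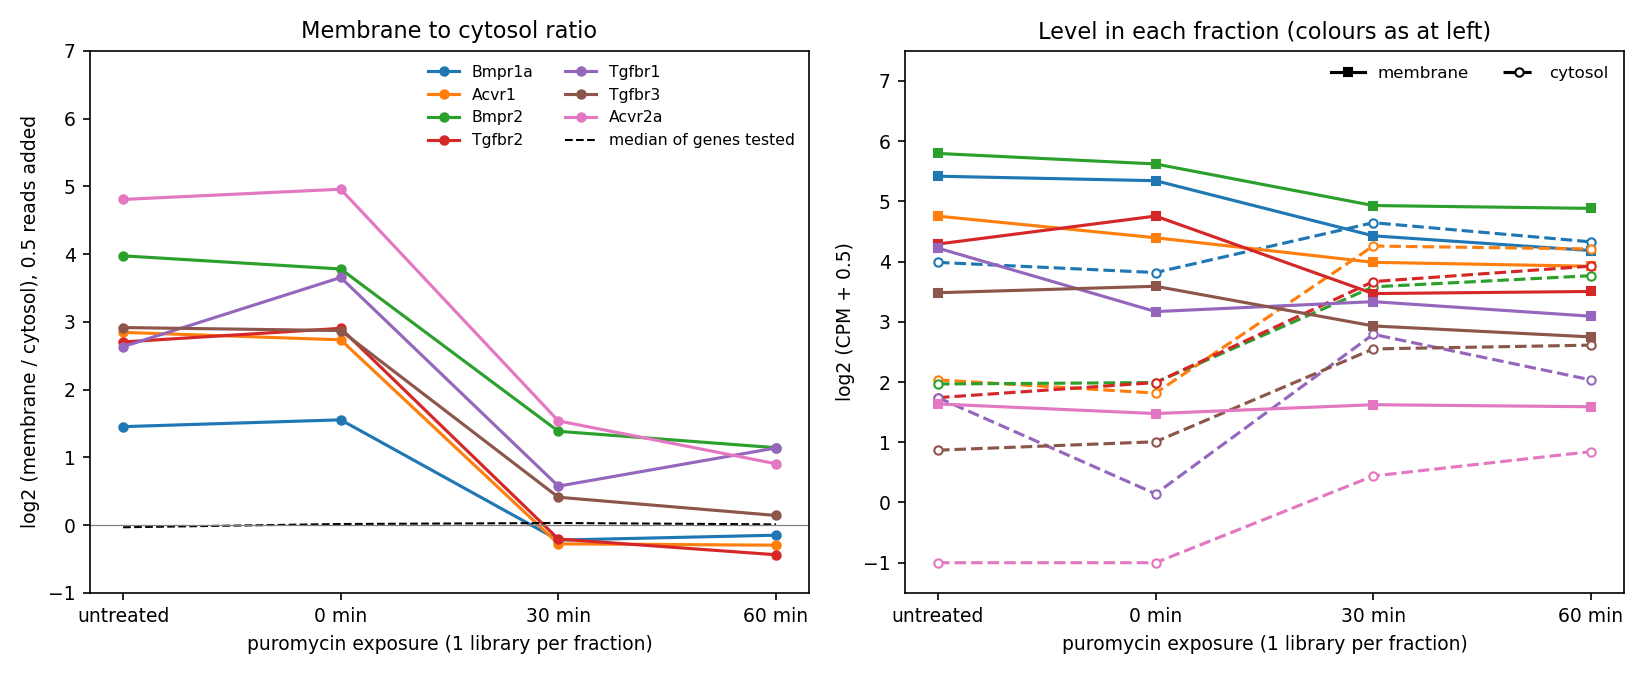
Membrane to cytosol ratio (left, log2 with 0.5 reads added) and level in each fraction (right, log2 of CPM + 0.5) of the 7 tested receptors in untreated cells and after 0, 30 and 60 min of puromycin, with 1 library per fraction and exposure and a dashed line at the median ratio of all genes. The ratio of Acvr1 goes from 2.73 at 0 min to -0.28 at 30 min, and that of Bmpr2 from 3.78 to 1.38.

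The RNA-seq libraries, 1 per fraction, gave ratios with no replicate check, and their intervals cover counting error only. Reads were scaled by the summed 3' UTR counts of each library. The log2 membrane to cytosol ratio was 2.49 for Tgfbr1 (95% exact interval 2.13 to 2.87), 1.55 for Bmpr1a (1.37 to 1.73), 3.16 for Acvr1 (2.82 to 3.53), 2.59 for Tgfbr2 (2.42 to 2.76), 2.51 for Bmpr2 (2.28 to 2.75) and 2.59 for Tgfbr3 (2.17 to 3.03). It was 0.97 for Acvr2a (0.66 to 1.30) and 1.09 for Acvr2b (-0.19 to 2.56), which had 7 reads in cytosol and 22 in membrane. With a pseudocount of 1 read, 6 of 8 members lay above 1, against 25.2% of 8905 genes.

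In the insoluble fraction the order changed. Bmpr1a was level with cytosol there (0.11, -0.12 to 0.33) and lower than in membrane by 1.44, while Acvr2b, with 67 reads, was 3.30 above cytosol (2.18 to 4.67) and 2.21 above membrane. Tgfbr1 (2.21), Tgfbr3 (2.47) and Acvr1 (2.66) stayed close to their membrane values. Above 1 lay 7 of 8 members and 37% of genes.

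The RNA-seq table splits reads between the constitutive part of the 3' UTR and the alternative part beyond a proximal poly(A) site. Reads of Tgfbr3 lay in the alternative part for 30.8% in cytosol (95% Wilson interval 19.9 to 44.3%, 52 reads), 51.3% in membrane (46.7 to 55.8%) and 47.7% in the insoluble fraction (41.9 to 53.5%). For Acvr2a the share was 96.4% in cytosol (91.0 to 98.6%) and 82.8% in membrane (78.2 to 86.5%), the opposite direction. Both pairs of intervals were apart, in single libraries. The shares of Bmpr1a (88.9% and 89.3%) and Tgfbr2 (96.1% and 96.7%) did not differ beyond their intervals, and Acvr1 had no read in an alternative part.

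Receptors fell into 2 kinds by their poly(A) sites, whose positions follow the deposited table (build mm9, per the submitters' processing notes). Acvr1 ended at 1 site (chromosome 2, minus strand, position 58298849) in 98.1% of its reads over all 26 libraries, Tgfbr1 at 47427796 on the plus strand of chromosome 4 in 93.2% and Tgfbr3 at 107535589 on the minus strand of chromosome 5 in 82.6%. Bmpr2 used 59934458 on the plus strand of chromosome 1 for 74.9%, a site 225 nt upstream for 11.4% and one 1753 nt upstream for 7.02%. Listed under Bmpr2 but on the other strand were 99 reads (2.30%), and under Tgfbr2 18 reads (0.80%), which are in the gene sums. Their share was larger in some libraries with few reads. In replicate 1 of differentiating cytosol polysomes they were 5 of 29 reads of Bmpr2 and 6 of 35 of Tgfbr2. Their part in the receptor values was not tested.

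Bmpr1a, Tgfbr2 and Acvr2a were spread over several sites. Bmpr1a, on the minus strand of chromosome 14, had 28.9% at 35224252, 24.1% at 35226350, 19.5% at 35226895 and 12.2% at 35227706, so that its ends covered 3454 nt. Tgfbr2, on the minus strand of chromosome 9, had 31.5% at 115999207 and 22.7% at 115996828, 2379 nt further downstream, with 14.9% at 115996878 and 12.8% at 115997050. Acvr2a, on the plus strand of chromosome 2, had 37.1% at 48758786 and 22.8% and 20.8% at sites 2989 and 2810 nt upstream. For Acvr2b the most used site (chromosome 9, plus strand, 119349382) held 16 of 33 reads. The table marks no gene regions, so whether these sites lie in the last exon was not analysed here.

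**Figure D5:**
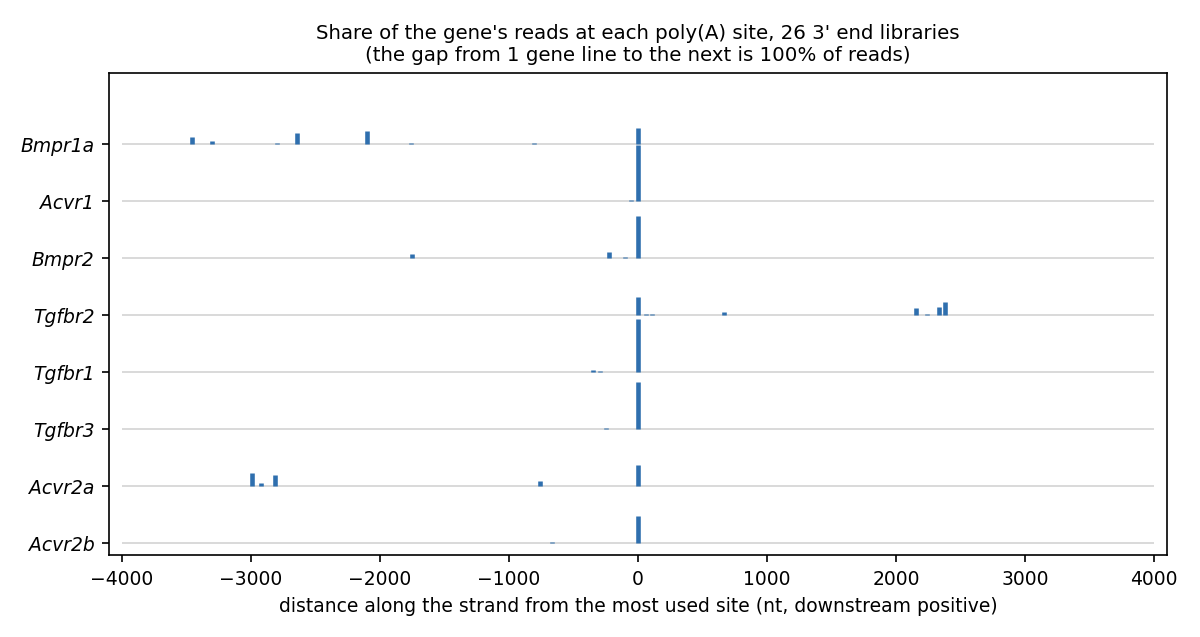
Share of each receptor's reads at its poly(A) sites (bar height, where the gap between gene lines stands for 100%, all 26 libraries) by distance from the gene's most used site in nt, downstream positive, for sites within 4000 nt. Acvr1 and Tgfbr1 end almost wholly at 1 site, at 98.1% and 93.2%, while Bmpr1a and Tgfbr2 put 28.9% and 31.5% at their most used site.

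Site usage did not pass the test between fractions for any receptor. Of 14 member sites that could be tested (6 of Bmpr1a, 5 of Tgfbr2 and 3 of Bmpr2), edgeR called 0 in proliferating cells, against 0.256% of 14824 sites, 0 in differentiating cells, against 0.027%, and 0 between states, against 0.958%. At an unadjusted p under 0.05 were 752, 571 and 1220 of all sites, among them 1 member site in the first comparison (Tgfbr2 at 115998537), 0 in the second and 1 in the last (Bmpr1a at 35227552, log2 -1.05, adjusted p = 0.579).

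The Bmpr1a site at 35227706, the most upstream of its main sites, took 19.6% of the gene's reads in cytosol (193 of 985) and 8.45% in membrane (201 of 2378), pooled over 8 libraries each. The pooled contrast lay in the cytosol monosomes, where the site took 25.0% (164 of 655), against 8.79% in cytosol polysomes (29 of 330), 9.67% in membrane monosomes and 7.84% in membrane polysomes. Per library it ranged from 6.0% to 34.9% in cytosol and from 2.35% to 18.8% in membrane, and in proliferating cells its usage in membrane differed by a log2 of -1.07 (unadjusted p = 0.063, adjusted p = 1). Its most downstream site, 35224252, had 21.4% in cytosol monosomes, 28.2% in cytosol polysomes, 28.1% in membrane monosomes and 35.5% in membrane polysomes.

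The Tgfbr2 site at 115998537 had 2 of 178 reads in cytosol and 58 of 999 in membrane. In proliferating cells it had 0 of 75 reads in cytosol, which allows a share of up to 4%. In membrane it had 21 of 435 reads (4.83%). Set against that 4%, the pooled membrane share was 1.21-fold higher, with the counting error of the 21 membrane reads left out. Per library its membrane share ranged from 1.27% to 10.8%, and edgeR did not call the site (unadjusted p = 0.015, adjusted p = 0.61). In differentiating cells it had 2 of 103 and 37 of 564 reads (unadjusted p = 0.069). On simulated data this site test recovered 16% of 2-fold and 74% of 4-fold changes between fractions over 12368 sites, so differences of the first size would mostly be missed. Those changes were set only in sites with many reads, at the same fixed replicate spread for all. Recovery at sites with few reads, such as this one, was not measured.

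Across the 16 gradient libraries, which share fraction, depth and replicate, the levels of the members (log2 of CPM + 1) moved together to different degrees. Pearson's r between members ran from 0.565 for Bmpr1a and Tgfbr2 to 0.912 for Bmpr2 and Acvr2a over 21 pairs. By the same measure the genes closest to Tgfbr1 were Dnajc10 (0.973) and Nptn (0.972), and those closest to Bmpr1a were Alg9 (0.960) and Clptm1l (0.957). Acvr1 was closest to Asb5 (0.945), Tgfbr2 to Pbxip1 (0.931), Bmpr2 to Lhfpl2 (0.967), Acvr2a to Extl2 (0.958) and Tgfbr3 to Fam134b (0.919). The closest match of Tgfbr3 was the lowest of the 7.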

How the data were processed

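Reads per poly(A) site and library (26 libraries) and RNA-seq reads per UTR part (3 libraries) were deposited as counts, per the file headers. The submitters' processing notes name mm9, cutadapt, Bowtie2 and STAR 2.5.2, with no roles, and whether counting used strand is not given in the sources used here. Sites were summed per gene symbol, leaving out 651 positions listed under several symbols (0.56% of reads, none of a member). edgeR 4.0.16 (R 4.3.3) fitted all 16 gradient libraries with filterByExpr, TMM and the robust quasi-likelihood F test, adjusted by Benjamini-Hochberg over all genes at 0.05. The SE follows from the log2 difference and its F statistic. Site usage was tested with diffSpliceDGE, and puromycin libraries with a term per exposure pair. On simulated data the gene test recovered 87% of 2-fold and 100% of 4-fold changes between fractions in proliferating cells (10682 genes). The simulation gave all genes the same fixed replicate spread, not that of these libraries, and set changes only in genes above the median level. It thus gives no recovery for Tgfbr2, Tgfbr1, Tgfbr3 or Acvr2a, at percentiles 44.3, 39.5, 23.8 and 15.1. Same-numbered replicates deviated together within each state (12 correlations of 0.469 to 0.725), so replicate numbers were taken as pairs there. DESeq2 1.42.0, other scalings and filters, the replicate block, single gradient parts and left-out libraries were alternatives. Members and lists were chosen with earlier results of these data known. Pathway genes named are those with the highest level or lowest p in their list; those named for the puromycin comparison were chosen after their values were seen. Similar genes are the closest by Pearson's r among genes with a mean of at least 10 CPM, predicted genes left out.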

Additional observations from a re-analysis of the deposited data

Results flagged for a closer look

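The difference between fractions in the polysome to monosome ratio stood out in 4 results, each by a direct test of the difference between the effect in membrane and the effect in cytosol. In proliferating cells the ratio was higher in membrane for Tgfbr1 by 3.37, for Bmpr1a by 2.53 and for Tgfbr2 by 2.96 (log2). In differentiating cells it was higher for Tgfbr1 by 3.03, where gradient part and the labelled medium cannot be told apart.

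For Tgfbr2 the call in proliferating cells held on leaving out each of the 8 libraries in turn. For Bmpr1a it was lost without cytosol polysome replicate 1 (2.14, adjusted p = 0.127), membrane monosome replicate 1 (1.94, 0.158), cytosol monosome replicate 2 (2.10, 0.115) or membrane polysome replicate 2 (2.17, 0.129). For Tgfbr1 it was lost without either cytosol polysome library, either membrane monosome library, cytosol monosome replicate 2 or membrane polysome replicate 2 (2.91 to 3.40, adjusted p 0.0556 to 0.0855). In differentiating cells the Tgfbr1 call was lost without cytosol polysome replicate 1, cytosol monosome replicate 2, either membrane monosome library or membrane polysome replicate 2 (2.45 to 3.19, adjusted p 0.0975 to 0.168), and without all 4 replicate 2 libraries of that state (2.57, adjusted p = 0.343), where 0% of genes were called. Without cytosol polysome replicate 2 it was 3.84 (adjusted p = 0.041).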

How the results depend on the processing

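Over 1777 values of members and sites under alternatives, 1517 kept their side of the threshold and their direction, 73 lost the call and 54 gained it. A sign changed without a call in 132 and with one in 1, Tgfbr1 in differentiating cells on monosomes alone (-0.26). The number of members higher in membrane was 4 to 5 of 7 in proliferating and 1 to 5 in differentiating cells when libraries were left out. It was 0 in both states on monosomes alone, 3 in differentiating cells with only the 8 libraries of that state and 1 without all 4 differentiating replicate 2 libraries. For polysome against monosome in membrane, 0 members were called in either state with only the 8 libraries of the state and with any library left out, and 0 in differentiating cells with no filter or without the 4 replicate 2 libraries. In cytosol 1 to 2 were called in proliferating and 0 to 2 in differentiating cells with libraries left out, and 1 and 0 in differentiating cells with the 8 libraries of the state and without the 4 replicate 2 libraries. For the ratio of both parts, 1 to 3 and 0 to 1 members were called with libraries left out, and in differentiating cells 3 with DESeq2, 0 with the 8 libraries of the state and 0 without the 4 replicate 2 libraries. The puromycin fit in minutes called 0 members with edgeR, 4 with DESeq2, and 7 with exposed against not exposed. The cause of these changes was not tested.

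With the replicate block, the pairing called 7 members higher in membrane in each state, 3 and 4 in membrane polysomes, 4 and 3 lower in cytosol polysomes and 6 in each ratio test (proliferating and differentiating cells). It changed no other call of a member within a state. Across states the numbers share only a label (16 correlations of 0.0985 to 0.255). There the block called 1 member in membrane, Tgfbr1 (-0.74, adjusted p = 0.0333), with 1754 higher and 2519 lower of all genes, and 1 in cytosol, Tgfbr2 (0.80, 0.0426), with 1560 and 1502, and DESeq2 called 1 in membrane.

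Of all genes, the block called 3754 higher and 2519 lower in membrane in proliferating cells, against 2597 and 1290 without it. Scaling by DESeq2 size factors gave 2231 and 1815 and moved the median from 0.17 to -0.00 (log2), with the same number of members called. Depth limits Acvr2b, which was not tested, and Acvr2a, with 237 reads in the gradient libraries.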
